A study of Homo sapiens and Mus musculus with 99 samples.

Results

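The heat shock chaperones followed here are 9 genes, taken by name in the human tables and by Ensembl gene ID in the mouse tables. The human genes are HSPA1A, HSPA1B, DNAJB1, HSPH1 and HSP90AA1, 5 of 57820 rows in each table of the lung cancer lines NCI-H1437 and NCI-H292. The mouse genes are Hspa1a (ENSMUSG00000091971), Hspa1b (ENSMUSG00000090877), Dnajb1 (ENSMUSG00000005483) and Hsph1 (ENSMUSG00000029657), 4 of 55401 rows in each table of lung epithelial cells. RNA-seq read counts per gene were compared between each treated group and the DPBS (buffered saline) group of its own experiment, and between each inhibitor or knockout extract and the full stimulus. The study asked how airway epithelium responds early to proteins that perforate the cell membrane.

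HSPA1A and HSPA1B encode the stress-inducible HSP70, an ATP-driven chaperone that binds unfolded stretches of protein. DNAJB1 (HSP40) is a J protein that hands clients to HSP70 and stimulates its ATPase, HSPH1 (HSP110) is a nucleotide exchange factor that resets HSP70, and HSP90AA1 is the inducible HSP90 alpha that takes over clients from HSP70. In mammalian cells heat and unfolded protein activate the transcription factor HSF1, which binds inverted GAA repeats in the promoters of heat shock genes.

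The human experiments numbered 6, with 51 libraries in 24 groups, all taken 4 h after treatment of cells grown in medium with heat-inactivated serum. Both lines are labelled as epithelial and as non-small cell lung cancer. In NCI-H1437, the experiment called H1437-1 compared Alternaria alternata extract with the inhibitor Tra (ALT+Tra), ALT alone and DPBS, with 3 libraries each. H1437-2 compared Aeg-S/L+Tra, Aeg-S, Aeg-L, Aeg-S/L (both proteins together) and DPBS. H1437-3 compared Aeg-S/L+BAPTA-AM, Aeg-S/L+EGTA, Aeg-S/L and DPBS, where BAPTA-AM chelates calcium inside cells and EGTA outside them. H1437-4 compared the extracts aegs KO ALT, aegl KO ALT and WT ALT with DPBS. In NCI-H292, H292-1 had the 4 groups of H1437-4 and H292-2 those of H1437-3. Tra is the inhibitor that the labels place in a MEK inhibitor experiment. No group received an inhibitor without a stimulus, so an effect of the inhibitor itself cannot be told apart from an effect on the response. The BAPTA-AM column names of H292-2 do not carry the stimulus, while the titles and descriptions give Aeg-S/L with BAPTA-AM, and these were followed.

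The mouse experiments numbered 7, with 48 libraries in 23 groups of lung epithelial cells isolated 6 h after treatment through the nose. Lung1 compared ALT with DPBS, with 3 libraries each. Lung2 compared Aeg-S, Aeg-L and Aeg-S/L with DPBS, and Lung3 compared aegs KO ALT, aegl KO ALT and WT ALT with DPBS. Lung4, labelled WT, compared the pore-forming proteins Lysenin, PlyA2EryB and LSL with DPBS. IL33KO1 compared ALT and Aeg-S/L with DPBS, and IL33KO2 compared Lysenin, PlyA2EryB and LSL with DPBS, all groups in IL-33 KO mice. Rag2gc compared Aeg-S/L with DPBS in Rag2-/-; gc-/- mice. The labels give no genotype for Lung1 to Lung3, and no strain, age or sex. Apart from Lung1 and H1437-1, each group had 2 libraries. The labels call replicates biological without naming cultures or animals, so p-values measure only the spread between these libraries.

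Library totals were 32425310 to 53172930 counts in the human lines and 29611231 to 66327693 in mouse. Levels are in CPM, counts per 1e+06 counts of the library after TMM scaling of library sizes. Epithelial markers were present in every human library, with EPCAM at 227.7 to 531.7 CPM, CDH1 at 161.5 to 335.5 CPM and KRT8 at 983.8 to 2596 CPM. Leukocyte genes were near 0 (PTPRC at most 0.2068 and CD3E at most 0.2449 CPM), as was mesenchymal PDGFRA (at most 0.1401 CPM). COL1A1, a collagen gene also used as a mesenchymal marker, reached 18.66 to 225.7 CPM. The mouse rows carry IDs without names, and marker levels and other chaperones were not analysed there. In these bulk samples fewer cells of a type and less RNA per cell cannot be told apart.

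The human genes differ in exact matches to the HSF1-type motif in the stretches printed. Each runs 5′ to 3′ over the 120 bases before a RefSeq start site (GRCh38.p14), with matches to GAANNTTC or TTCNNGAA in capitals. The windows of DNAJB1 and HSP90AA1 were picked for holding the motif after the letters were seen.
HSPA1A, chr6:31815423-31815542, plus strand: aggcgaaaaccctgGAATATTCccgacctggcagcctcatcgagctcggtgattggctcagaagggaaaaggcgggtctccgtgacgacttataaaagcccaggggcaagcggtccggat
DNAJB1, chr19:14518398-14518517, minus strand: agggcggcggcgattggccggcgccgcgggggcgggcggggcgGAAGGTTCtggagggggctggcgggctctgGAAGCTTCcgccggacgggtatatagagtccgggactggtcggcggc
HSP90AA1, chr14:102087045-102087164, minus strand: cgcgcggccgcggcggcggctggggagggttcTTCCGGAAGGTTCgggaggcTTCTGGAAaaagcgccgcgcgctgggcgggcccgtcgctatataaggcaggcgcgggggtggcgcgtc
HSPH1, chr13:31162389-31162508, minus strand: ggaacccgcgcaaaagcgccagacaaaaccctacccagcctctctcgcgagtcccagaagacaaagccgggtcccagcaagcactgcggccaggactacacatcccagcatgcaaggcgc

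DNAJB1 holds 2 matches in this stretch, at -77 to -70 and -47 to -40 from the start site. HSP90AA1 holds 3, of which the ones at -88 to -81 and -83 to -76 overlap and make a run of 3 units. HSPA1A holds 1, at -106 to -99, and HSPA1B 1, at -105 to -98. The windows of HSPA1A and HSPA1B were identical at 277 of 299 aligned bases. No match stood in the HSPH1 window, in the other HSP90AA1 window or in window 1 of the 3 DNAJB1 windows, while DNAJB1 window 3 held one at 1 to 8. Of all 35116 windows of 300 bases, 13.5% held GAANNTTC or TTCNNGAA and 0.490% held GAANNTTCNNGAA or TTCNNGAANNTTC, counted on both strands, with overlaps allowed. A match is a run of letters and not a measured binding site.

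In the files' builds, hg19 and mm10, HSPA1A and HSPA1B lie side by side on chromosome 6 (31783291 to 31785723 and 31795512 to 31798031, both on the plus strand). DNAJB1 lies on chromosome 19 (14625582 to 14640582), HSPH1 on chromosome 13 (31710762 to 31736525) and HSP90AA1 on chromosome 14 (102547075 to 102606036), each on the minus strand. In mouse Hspa1a (34969190 to 34972156) and Hspa1b (34956436 to 34959238) lie on the minus strand of chromosome 17, Dnajb1 on the plus strand of chromosome 8 (83608193 to 83612653) and Hsph1 on the minus strand of chromosome 5 (149614287 to 149636376). Counts cover the exons of each gene.

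Levels differed widely among the human genes. Given per kilobase of exon, so that genes can be compared, the median level was 1332 CPM per kb for HSP90AA1, 81.15 for HSPH1 and 35.03 for DNAJB1 over the 35 NCI-H1437 libraries. Over the 16 NCI-H292 libraries the medians were 388.6 CPM per kb for HSP90AA1, 79.33 for HSPH1 and 76.13 for DNAJB1. HSP90AA1 thus stood highest in both lines, and its ranges (839.4 to 2423 and 337.5 to 472.7 CPM per kb) did not overlap those of the other members. HSPH1 and DNAJB1 overlapped in NCI-H1437 (24.33 to 130.4 and 18.99 to 79.09 CPM per kb) and in NCI-H292 (58.94 to 100.5 and 59.96 to 160.0 CPM per kb). Lines were sequenced in separate experiments, so that line and experiment cannot be told apart.

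Counts of HSPA1A and HSPA1B, the HSP70 genes, were close to 0 in both lines under every treatment. HSPA1A had 0 to 15 counts per library in each line, 57 in all over NCI-H1437 and 35 over NCI-H292. HSPA1B had 0 to 34 counts in NCI-H1437 and 0 to 17 in NCI-H292, 108 and 80 in all. Neither passed the filter on low counts in any experiment, which leaves 3 of the 5 human members tested. The 2 genes are near copies: 67.3% of the 100-base stretches of HSPA1A transcripts also occur in HSPA1B, and 68.8% of those of HSPA1B occur in HSPA1A. The sources used here do not say how reads that fit both genes, or other places in the build, were counted. The part of this in the low values was not tested, so the counts do not show that the genes were silent. By the same measure 2.51% of DNAJB1 stretches and 2.99% of HSP90AA1 stretches occur in another gene, and 0 of 8866 for HSPH1. The DNAJB1 overlap is with TECR, and the library kit is not stated to keep strand.

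DNAJB1 rose with Aeg-S/L in both lines. In NCI-H1437 (H1437-3) it was at 278.1 and 290.4 CPM with Aeg-S/L, against 165.0 and 167.4 CPM with DPBS. The groups did not overlap, and the difference was 1.71-fold (log2 0.77 ± 0.06 SE, adjusted p = 2.25e-08). In NCI-H292 (H292-2) DNAJB1 was at 488.7 and 476.3 CPM with Aeg-S/L, against 267.2 and 280.6 CPM with DPBS, a 1.76-fold rise (log2 0.82 ± 0.05, adjusted p = 2.84e-10). Of all genes tested, 31.2% were called in H1437-3 and 43.2% in H292-2 for the same contrast, so a call by itself sets no gene apart. The rise did not differ detectably between the lines (0.06 ± 0.08 on the log2 scale, adjusted p = 0.705).

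The earlier NCI-H1437 experiment, H1437-2, gave a smaller rise that missed the threshold. DNAJB1 was at 212.3 and 198.1 CPM with Aeg-S/L, 105.2 and 102.4 CPM with Aeg-S alone, 121.6 and 129.3 CPM with Aeg-L alone, and 142.7 and 143.6 CPM with DPBS. The Aeg-S/L libraries stood above DPBS and those of the single proteins below it. How many of all genes separate in this way with 2 libraries per group was not counted. The changes were 0.52 ± 0.16 for Aeg-S/L (adjusted p = 0.0695; 0.029 by DESeq2), -0.46 ± 0.16 for Aeg-S (adjusted p = 0.528) and -0.19 ± 0.16 for Aeg-L (adjusted p = 1). In H1437-2, 6.72% of genes were called for Aeg-S/L and 0% for each single protein. Unadjusted p-values fell under 0.05 for 1491 genes with Aeg-S and 186 with Aeg-L, and DESeq2 called 0 in both.

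WT ALT raised DNAJB1 in H292-1 and lowered it in H1437-4. In NCI-H292 (H292-1) it was at 579.6 and 587.6 CPM with WT ALT, against 278.5 and 283.8 CPM with DPBS, a 2.08-fold rise (log2 1.05 ± 0.12, adjusted p = 0.000154). In NCI-H1437 (H1437-4) it was at 120.9 and 107.1 CPM with WT ALT, against 155.1 and 157.2 CPM with DPBS, a fall to 0.730-fold (log2 -0.45 ± 0.07, adjusted p = 5.22e-05). The lines' responses differed by 1.48 ± 0.13 on the log2 scale, NCI-H292 minus NCI-H1437 (adjusted p = 1.2e-06), where 8.90% of genes differed. Within each line 22.9% of genes were called in H292-1 and 32.8% in H1437-4.

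The other ALT experiment in NCI-H1437 did not show that fall. In H1437-1 DNAJB1 was at 84.03, 111.3 and 122.0 CPM with ALT, against 81.07, 69.96 and 69.72 CPM with DPBS. All ALT libraries lay above all DPBS libraries, but the change of 0.52 ± 0.21 was not called (adjusted p = 0.224). The ALT responses in H1437-4 and H1437-1 differed by -0.95 ± 0.26 on the log2 scale, which was not called either (adjusted p = 0.26), and 0.00567% of genes were called for that difference. Whether ALT and WT ALT are the same preparation is not stated. Within NCI-H1437, the Aeg-S/L response of H1437-3 exceeded the WT ALT response of H1437-4 by 1.21 ± 0.09 (adjusted p = 1.8e-08), where 1.94% of genes differed.

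Extracts of the knockout fungi gave no called change of DNAJB1 against DPBS in either line. In H292-1 it was at 280.8 and 276.0 CPM with aegs KO ALT and at 307.3 and 276.8 CPM with aegl KO ALT. Both knockout extracts fell below WT ALT, by 1.07 ± 0.12 for aegs KO ALT (adjusted p = 0.000129) and by 0.999 ± 0.12 for aegl KO ALT (adjusted p = 0.000243) on the log2 scale. Against DPBS the changes were -0.01 ± 0.11 and 0.05 ± 0.11 (adjusted p = 0.9997 and 0.867), and a p above the threshold does not show that they were equal. In H1437-4 DNAJB1 was at 172.5 and 184.7 CPM with aegs KO ALT and at 162.2 and 170.3 CPM with aegl KO ALT. All of these lay above the WT ALT libraries and also above the DPBS libraries. There the knockout extracts exceeded WT ALT by 0.65 ± 0.07 (adjusted p = 1.42e-06) and 0.54 ± 0.07 (adjusted p = 1e-05), with changes against DPBS of 0.19 ± 0.06 (adjusted p = 0.211) and 0.09 ± 0.06 (adjusted p = 0.609). For aegs KO ALT and aegl KO ALT against WT ALT, 26.6% and 19.0% of genes were called in H292-1, and 29.9% and 30.6% in H1437-4. Against DPBS the shares were 0% (308 genes at an unadjusted p under 0.05, 0 by DESeq2) and 0.120% in H292-1, and 1.08% and 0.766% in H1437-4.

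**Figure D1:**
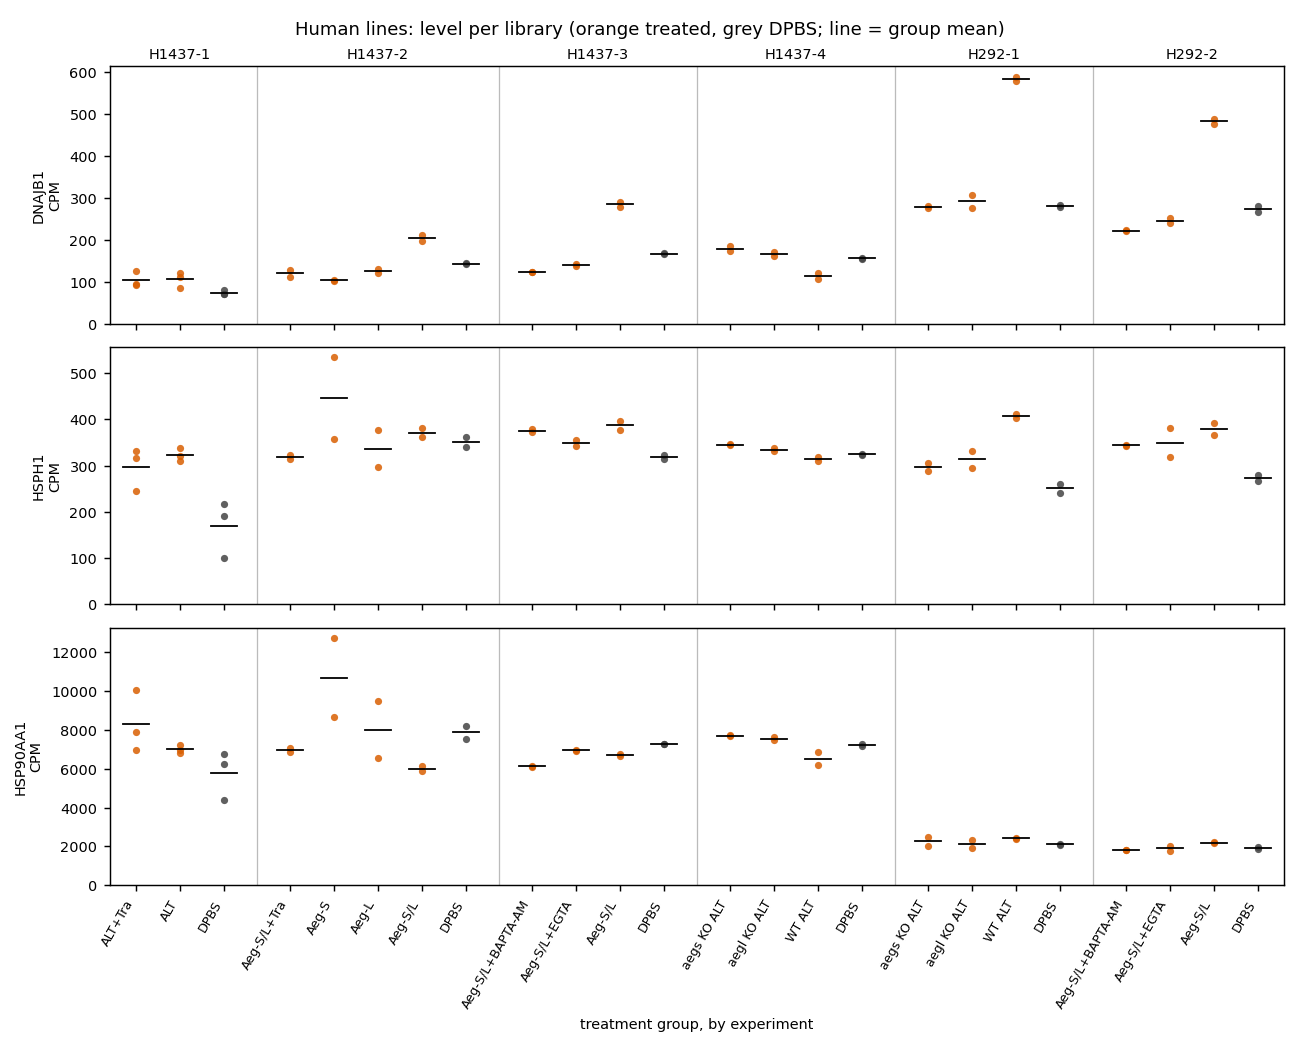
CPM of DNAJB1, HSPH1 and HSP90AA1 in each human library (y axis) by experiment and group (x axis), with treated groups in orange, DPBS in grey and a line at each group's mean. DNAJB1 stands at 488.7 and 476.3 CPM with Aeg-S/L in H292-2 and at 220.2 to 251.7 CPM with either chelator added.

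Both calcium chelators brought DNAJB1 below its level with Aeg-S/L alone, and below DPBS. In H1437-3 it was at 123.3 and 123.0 CPM with Aeg-S/L+BAPTA-AM and at 141.3 and 136.4 CPM with Aeg-S/L+EGTA, with no overlap with Aeg-S/L or DPBS. Set against Aeg-S/L, it fell by 1.21 ± 0.06 with BAPTA-AM (adjusted p = 6.73e-11) and by 1.03 ± 0.06 with EGTA (adjusted p = 9.63e-10) on the log2 scale. Set against DPBS, it fell by 0.43 ± 0.06 with BAPTA-AM (adjusted p = 1.69e-05) and by 0.26 ± 0.06 with EGTA (adjusted p = 0.00999), the second call being lost without either EGTA library. In this experiment 27.7% of genes were called for BAPTA-AM and 30.6% for EGTA against Aeg-S/L, and 34.1% and 5.18% against DPBS.

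NCI-H292 gave the same order. In H292-2 DNAJB1 was at 220.2 and 222.4 CPM with Aeg-S/L+BAPTA-AM and at 251.7 and 240.2 CPM with Aeg-S/L+EGTA, below the Aeg-S/L and the DPBS libraries. It fell by 1.12 ± 0.05 with BAPTA-AM (adjusted p = 1.89e-12) and by 0.97 ± 0.05 with EGTA (adjusted p = 3.15e-11) against Aeg-S/L. Against DPBS it fell by 0.31 ± 0.05 with BAPTA-AM (adjusted p = 0.00014) and by 0.16 ± 0.05 with EGTA (adjusted p = 0.0309), the second call being lost without Aeg-S/L+EGTA replicate 2 or DPBS replicate 2. The chelator contrasts against Aeg-S/L differed between the lines by 0.04 ± 0.08 for BAPTA-AM (adjusted p = 0.847) and 0.05 ± 0.08 for EGTA (adjusted p = 0.72), where 11% and 14.4% of genes differed. In H292-2 37.9% and 44.9% of genes were called for BAPTA-AM and EGTA against Aeg-S/L, and 36.6% and 34.5% against DPBS.

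BAPTA-AM and EGTA are both calcium chelators, and BAPTA-AM is the ester form that enters cells. At the doses used, DNAJB1 was lower with BAPTA-AM than with EGTA by 0.17 ± 0.06 in H1437-3 (adjusted p = 0.0223) and by 0.15 ± 0.05 in H292-2 (adjusted p = 0.0257). The call was lost whichever of the 4 libraries was left out in H1437-3 and without either BAPTA-AM library in H292-2. For this contrast 37.7% of genes were called in H1437-3 and 46.6% in H292-2.

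The inhibitor Tra was tested with Aeg-S/L and with ALT, and DNAJB1 was called lower in the contrast with Aeg-S/L. In H1437-2 it was at 128.6 and 112.0 CPM with Aeg-S/L+Tra, against 212.3 and 198.1 CPM with Aeg-S/L, a fall of 0.77 ± 0.16 (adjusted p = 0.0297). That call was lost whichever of the 4 libraries was left out, with values from -0.85 to -0.67. In H1437-1 DNAJB1 was at 91.29, 95.36 and 126.6 CPM with ALT+Tra, which overlaps the ALT libraries (-0.02 ± 0.21, adjusted p = 0.967). The contrast of the 2 Tra effects was not tested. For Tra against the stimulus 1.27% of genes were called in H1437-2 and 5.08% in H1437-1, and against DPBS 0.495% and 0.283%. In H1437-1 4.71% of genes were called for ALT against DPBS.

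HSPH1, the nucleotide exchange factor, rose with Aeg-S/L in 2 experiments and with WT ALT in NCI-H292. In H1437-3 it was at 397.4 and 377.7 CPM with Aeg-S/L, against 313.2 and 322.0 CPM with DPBS (log2 0.29 ± 0.05, adjusted p = 0.000548). In H292-2 it was at 367.1 and 392.7 CPM with Aeg-S/L, against 278.7 and 267.1 CPM with DPBS (0.48 ± 0.07, adjusted p = 1.31e-05). In H292-1 it was at 411.6 and 403.1 CPM with WT ALT, against 259.9 and 241.5 CPM with DPBS (0.70 ± 0.12, adjusted p = 0.0023). These 3 pairs of groups did not overlap. In H1437-4 HSPH1 was at 310.0 and 318.2 CPM with WT ALT, against 325.6 and 323.6 CPM with DPBS (-0.05 ± 0.05, adjusted p = 0.516), and the WT ALT response differed between the lines by 0.71 ± 0.12 (NCI-H292 minus NCI-H1437, adjusted p = 0.00123).

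In H1437-1 1 control library bears on HSPH1. It was at 337.4, 320.9 and 310.7 CPM with ALT and at 244.5, 315.5 and 332.5 CPM with ALT+Tra, against 99.67, 191.9 and 217.4 CPM with DPBS. DPBS replicate 1 was the lowest. The ALT change of 0.93 ± 0.27 was not called (adjusted p = 0.0837; 0.0257 by DESeq2), was called without DPBS replicate 1, and ranged from 0.64 to 1.13 with single libraries left out. In a joint fit the WT ALT response of H1437-4 minus this ALT response was -0.94 ± 0.34, without a call (adjusted p = 0.446). In H1437-2 no HSPH1 change was called, with 356.6 and 534.4 CPM for Aeg-S, 377.3 and 296.3 for Aeg-L, 323.2 and 313.8 for Aeg-S/L+Tra, 362.4 and 380.2 for Aeg-S/L, and 341.0 and 361.3 for DPBS.

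HSPH1 stayed above DPBS when BAPTA-AM was added, where DNAJB1 lay below it. In H1437-3 it was at 372.7 and 378.6 CPM with Aeg-S/L+BAPTA-AM and at 355.9 and 341.9 CPM with Aeg-S/L+EGTA. The BAPTA-AM libraries exceeded DPBS by 0.24 ± 0.05 (adjusted p = 0.00188), while EGTA against DPBS was 0.14 ± 0.05 (adjusted p = 0.18). Against Aeg-S/L the values were -0.05 ± 0.05 for BAPTA-AM (adjusted p = 0.589) and -0.15 ± 0.05 for EGTA (adjusted p = 0.0391, lost whichever of the 4 libraries was left out). In H292-2 HSPH1 was at 344.5 and 342.5 CPM with BAPTA-AM and at 318.0 and 380.5 CPM with EGTA. Both exceeded DPBS, by 0.33 ± 0.07 (adjusted p = 0.000726) and 0.36 ± 0.07 (adjusted p = 0.000458). The EGTA value was 0.23 without Aeg-S/L+EGTA replicate 2, and against Aeg-S/L neither chelator was called, at -0.15 ± 0.07 (adjusted p = 0.105) and -0.12 ± 0.07 (adjusted p = 0.161). The contrast of the chelator responses of DNAJB1 and HSPH1 was itself not tested.

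The knockout extracts gave HSPH1 levels between those of WT ALT and DPBS in H292-1. HSPH1 was at 305.4 and 287.3 CPM with aegs KO ALT and at 332.0 and 295.4 CPM with aegl KO ALT. Against WT ALT it fell by 0.46 ± 0.12 with aegs KO ALT (adjusted p = 0.0173, lost without either WT ALT library) and by 0.38 ± 0.12 with aegl KO ALT (adjusted p = 0.0495, lost whichever of the 4 libraries was left out). Against DPBS the values were 0.24 ± 0.12 (adjusted p = 0.9997) and 0.32 ± 0.12 (adjusted p = 0.298). In H1437-4 HSPH1 was at 345.7 and 345.1 CPM with aegs KO ALT and at 338.2 and 330.8 CPM with aegl KO ALT. The aegs KO ALT value exceeded WT ALT by 0.14 ± 0.05 (adjusted p = 0.0461), a call lost in 3 of the 4 fits without a library, and aegl KO ALT against WT ALT was 0.09 ± 0.05 (adjusted p = 0.185).

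With Aeg-S/L, HSP90AA1 moved little in H1437-3 and H292-2, and in different directions. In H1437-3 it was at 6743 and 6653 CPM with Aeg-S/L, against 7294 and 7255 CPM with DPBS (log2 -0.12 ± 0.03, adjusted p = 0.0138, lost in 3 of the 4 fits without a library). In H292-2 it was at 2174 and 2198 CPM with Aeg-S/L, against 1942 and 1884 CPM with DPBS (0.19 ± 0.05, adjusted p = 0.007, lost without Aeg-S/L replicate 2 or DPBS replicate 2). The difference between the lines, NCI-H292 minus NCI-H1437, was 0.33 ± 0.07 (adjusted p = 0.00238), where 14.3% of genes differed.

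With BAPTA-AM added, HSP90AA1 was lower than with Aeg-S/L alone in both lines. In H1437-3 it was at 6071 and 6160 CPM with BAPTA-AM, below Aeg-S/L by 0.13 ± 0.03 (adjusted p = 0.0083, lost without Aeg-S/L replicate 1) and below DPBS by 0.25 ± 0.03 (adjusted p = 2.8e-05). In H292-2 it was at 1802 and 1821 CPM with BAPTA-AM and at 1771 and 2015 CPM with EGTA, below Aeg-S/L by 0.27 ± 0.05 (adjusted p = 0.000453) and 0.21 ± 0.05 (adjusted p = 0.00383). The EGTA value was -0.29 without Aeg-S/L+EGTA replicate 2 and -0.12 without replicate 1, and the BAPTA-AM libraries of H292-2 were not called against DPBS (-0.08 ± 0.05, adjusted p = 0.278). In H1437-3 EGTA gave 6990 and 6933 CPM, and BAPTA-AM against EGTA was -0.19 ± 0.03 (adjusted p = 0.00038).

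WT ALT lowered HSP90AA1 in H1437-4, to 6207 and 6842 CPM, against 7161 and 7296 CPM with DPBS (-0.15 ± 0.04, adjusted p = 0.0153). Leaving out single libraries gave -0.22 to -0.08, the first without WT ALT replicate 2 and the second without WT ALT replicate 1. The call was lost without DPBS replicate 2. The knockout extracts gave 7669 and 7723 CPM for aegs KO ALT and 7628 and 7465 CPM for aegl KO ALT, above WT ALT by 0.24 ± 0.04 (adjusted p = 0.000562) and 0.21 ± 0.04 (adjusted p = 0.00159). In H292-1 WT ALT gave 2392 and 2448 CPM, against 2143 and 2056 CPM with DPBS, with no call (0.20 ± 0.15, adjusted p = 0.354). No HSP90AA1 change was called in H1437-1, where it was at 6983, 7912 and 10050 CPM with ALT+Tra, 7241, 6977 and 6787 CPM with ALT, and 4405, 6782 and 6221 CPM with DPBS. None was called in H1437-2 either, where it was at 7047 and 6860 CPM with Aeg-S/L+Tra, 8655 and 12720 CPM with Aeg-S, 9479 and 6546 CPM with Aeg-L, 5885 and 6129 CPM with Aeg-S/L, and 7557 and 8188 CPM with DPBS.

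**Figure D2:**
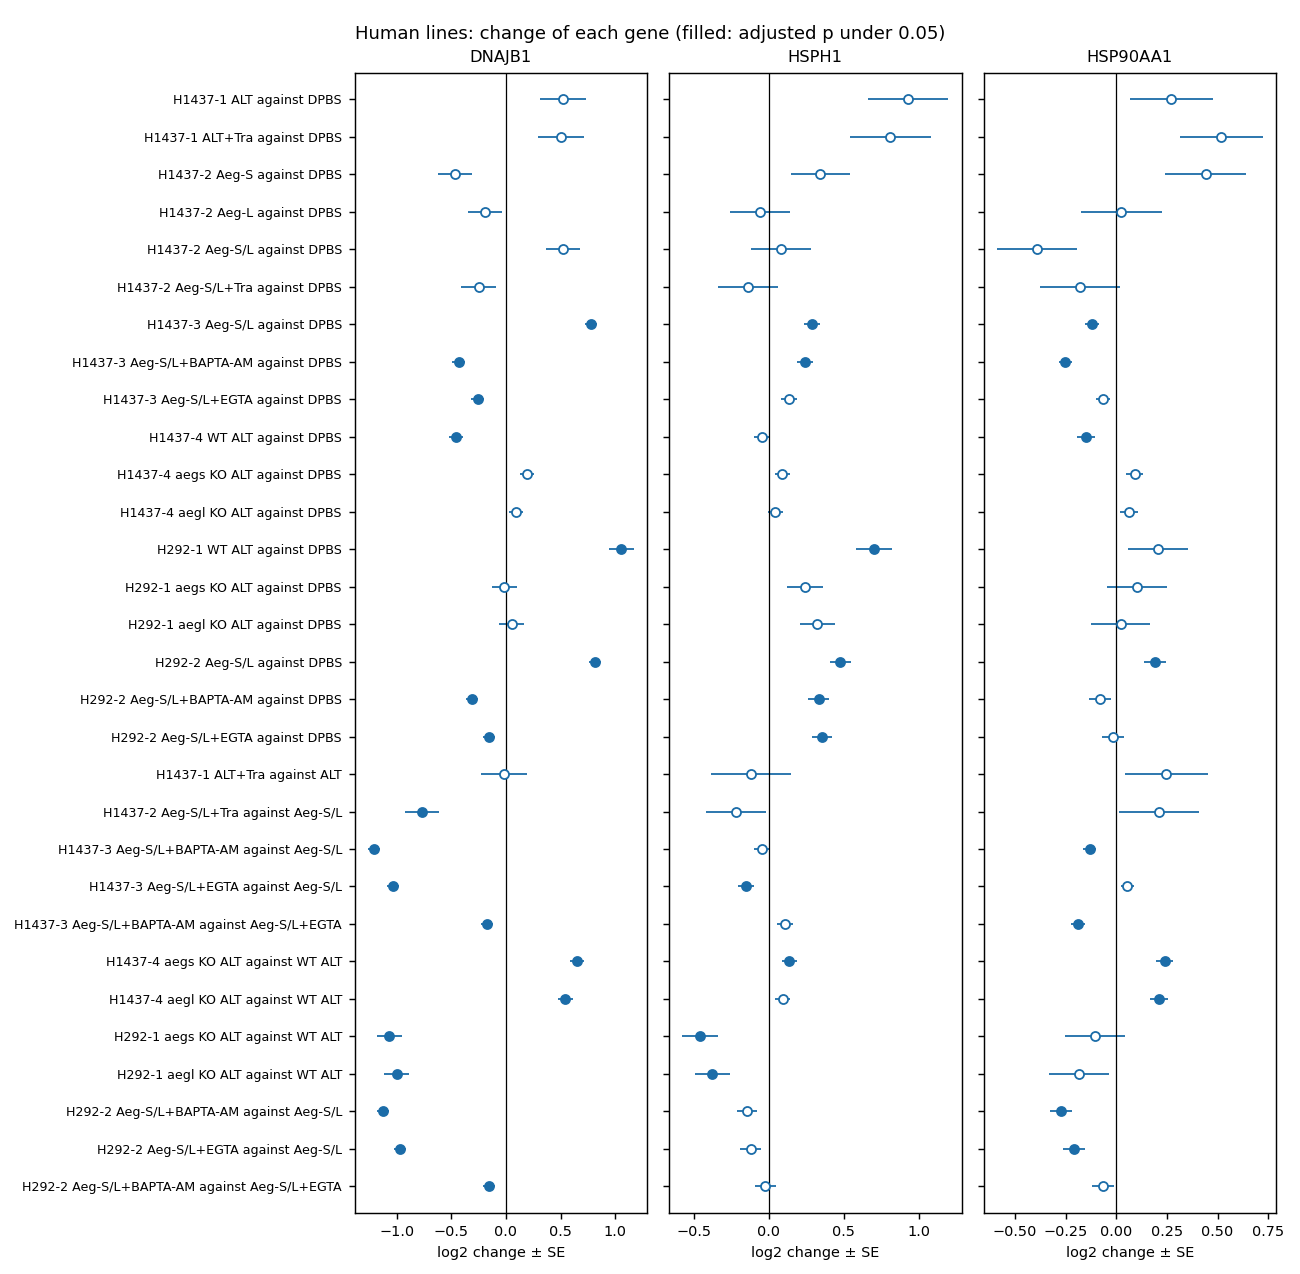
Log2 change of DNAJB1, HSPH1 and HSP90AA1 in each human comparison, with bars of 1 SE and filled points at an adjusted p under 0.05. DNAJB1 lies at 0.77 and 0.82 for Aeg-S/L in H1437-3 and H292-2, and at -0.45 and 1.05 for WT ALT in H1437-4 and H292-1.

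Counted over the 18 contrasts of a treated group against DPBS in the lines, DNAJB1 was higher in 3 and lower in 5, HSPH1 higher in 6 and lower in 0, and HSP90AA1 higher in 1 and lower in 3. Of the 5 DNAJB1 falls, 4 were chelator groups and 1 was WT ALT in NCI-H1437. Over the 12 contrasts against a stimulus or between inhibitors, DNAJB1 was higher in 2 and lower in 9. These contrasts share DPBS and stimulus libraries within an experiment and are not independent. Per contrast, 0% to 43.2% of all genes were called for the 18 and 1.27% to 46.6% for the 12. Such counts alone set no member apart.

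Among 53 other chaperone and heat shock response genes, 51 were tested in the lines, and the HSP70 relatives HSPA1L and HSPA7 were not. With Aeg-S/L, 16 were higher and 4 lower in H1437-3, 29 higher and 8 lower in H292-2, and 3 higher and 0 lower in H1437-2, where the median change was -0.01. With WT ALT, 14 were higher and 5 lower in H1437-4, and 13 higher and 5 lower in H292-1. Their median log2 changes were 0.05 in H1437-3, 0.24 in H292-2, -0.03 in H1437-4 and 0.11 in H292-1, beside medians over all tested genes of 0.01, -0.01, -0.01 and -0.01. Over all genes 31.2%, 43.2% and 6.72% were called with Aeg-S/L in H1437-3, H292-2 and H1437-2. With WT ALT the shares were 32.8% in H1437-4 and 22.9% in H292-1. Whether the list differs from all genes was not tested.

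J proteins, the class of DNAJB1, were higher for 6 of 8 and lower for 0 with Aeg-S/L in H1437-3, and higher for 4 and lower for 1 in H292-2. Of all genes, 31.2% and 43.2% were called in these contrasts. DNAJA4, a cytosolic J protein, averaged 69.93 CPM with Aeg-S/L and 45.49 CPM with DPBS in H1437-3 (0.62 ± 0.07, adjusted p = 8.47e-06), and 82.78 CPM with Aeg-S/L and 39.05 CPM with DPBS in H292-2 (1.08 ± 0.08, adjusted p = 1.85e-09). DNAJB2 went opposite ways, rising by 0.93 ± 0.17 in H1437-3 and falling by 0.66 ± 0.07 in H292-2. DNAJA1, the partner of the constitutive HSP70, averaged 418.0 CPM with Aeg-S/L and 229.4 CPM with DPBS in H292-2 (0.87 ± 0.07, adjusted p = 2.37e-09), and 419.7 CPM with ALT and 230.5 CPM with DPBS in H1437-1 (0.86 ± 0.19, adjusted p = 0.0247). DNAJB9, a J protein of the endoplasmic reticulum, averaged 42.34 CPM with Aeg-S/L and 23.59 CPM with DPBS in H1437-3 (0.84 ± 0.09, adjusted p = 3.89e-06).

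Small heat shock proteins, which hold unfolded protein without ATP, were higher for 2 of 3 and lower for 0 with Aeg-S/L in both lines. HSPB8 was among the largest, with averages of 164.4 CPM with Aeg-S/L and 59.13 CPM with DPBS in H292-2 (1.48 ± 0.06, adjusted p = 6e-13), 75.13 CPM with Aeg-S/L and 43.16 CPM with DPBS in H1437-3 (0.80 ± 0.08, adjusted p = 7.36e-07), and 138.6 CPM with WT ALT and 61.86 CPM with DPBS in H292-1 (1.16 ± 0.12, adjusted p = 9.02e-05). TRiC, the cytosolic chaperonin, had 0 of 8 subunits higher and 1 lower in H1437-3, and 3 higher and 2 lower in H292-2. For Aeg-S/L, 31.2% of all genes were called in H1437-3 and 43.2% in H292-2.

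With WT ALT in H292-1, HSPA6, an HSP70 gene induced by strong heat stress, averaged 3.061 CPM with WT ALT and 0.5461 CPM with DPBS (2.51 ± 0.50, adjusted p = 0.00555). FKBP4, an HSP90 co-chaperone, averaged 347.0 CPM with WT ALT and 186.6 CPM with DPBS (0.89 ± 0.12, adjusted p = 0.000551). In H1437-4 the J proteins split: DNAJB4 fell by 0.85 ± 0.10 (adjusted p = 1.02e-05), DNAJB9 rose by 0.79 ± 0.10 (adjusted p = 1.88e-05), and 4 of 8 were higher and 1 lower in all. Of all genes, 32.8% were called with WT ALT there. Against WT ALT in H292-1, aegs KO ALT left 4 listed genes higher and 12 lower, and aegl KO ALT left 4 higher and 13 lower. In H1437-4 aegs KO ALT left 11 higher and 8 lower, and aegl KO ALT 8 higher and 10 lower. Of all genes, 26.6% and 19.0% were called for these contrasts in H292-1. In H1437-4 the shares were 29.9% and 30.6%. Against DPBS, the knockout extracts changed 1 listed gene each in H1437-4 (HSPA8, the constitutive HSP70, by 0.21 ± 0.04 in both) and 0 in H292-1. Over all genes 1.08% and 0.766% were called in H1437-4, and 0% and 0.120% in H292-1.

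More J proteins on the list were lower than higher with each chelator. Against Aeg-S/L, BAPTA-AM left 0 of 8 higher and 7 lower in both H1437-3 and H292-2, and EGTA left 2 higher and 5 lower in H1437-3 and 2 higher and 4 lower in H292-2. Of all genes, 27.7% and 37.9% were called for BAPTA-AM in H1437-3 and H292-2, and 30.6% and 44.9% for EGTA. Over all listed genes the counts for BAPTA-AM were 14 higher and 15 lower in H1437-3 and 11 higher and 23 lower in H292-2, with medians of 0.07 and -0.14 beside 0.01 and 0.02 over all genes. For EGTA they were 11 higher and 18 lower, and 13 higher and 24 lower, with medians of -0.07 and -0.12 beside -0.02 and 0.01.

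Between the chelators, DNAJB9 had the largest called change on the list in both lines, and HSPA5 was among the 4 largest. HSPA5 (BiP, the HSP70 of the endoplasmic reticulum) averaged 742.1 CPM with BAPTA-AM and 2791 CPM with EGTA in H292-2 (-1.91 ± 0.05, adjusted p = 3.95e-16), and 621.3 CPM with BAPTA-AM and 1120 CPM with EGTA in H1437-3 (-0.85 ± 0.05, adjusted p = 1.54e-09). DNAJB9 averaged 13.84 CPM with BAPTA-AM and 115.6 CPM with EGTA in H292-2 (-3.06 ± 0.08, adjusted p = 1.55e-15), and 9.576 CPM with BAPTA-AM and 55.87 CPM with EGTA in H1437-3 (-2.54 ± 0.10, adjusted p = 3.31e-11). HSPB8 fell with EGTA against Aeg-S/L in both lines, by 1.41 ± 0.06 in H292-2 and 0.76 ± 0.08 in H1437-3.

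**Figure D3:**
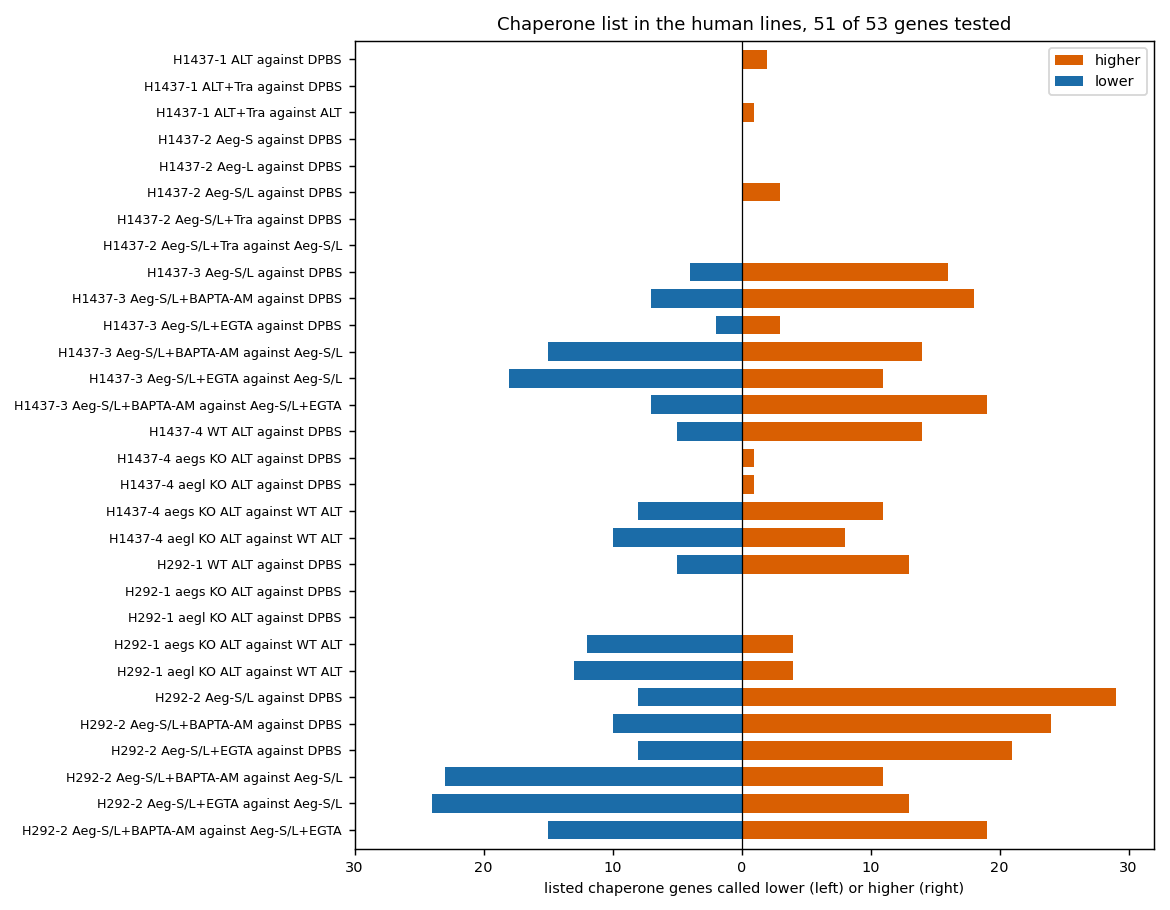
Number of the 51 tested listed chaperone genes called higher (right of 0) or lower (left of 0) at an adjusted p under 0.05 in each human comparison. Aeg-S/L against DPBS has 29 higher and 8 lower in H292-2 and 16 higher and 4 lower in H1437-3. Over all genes 43.2% and 31.2% were called in these contrasts.

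The genes whose log2 changes against DPBS were most like those of DNAJB1, over the 18 treated human groups and among 14232 genes tested in all 6 experiments, were RCAN1 (Pearson r of 0.845), DNAJA1 (0.841), ARHGEF34P (0.838), CCNT2 (0.836) and HSPA2 (0.826). For HSPH1 they were PHF8 (0.919), EDRF1 (0.903), WDR26 (0.902), NIPA1 (0.901) and LAMA3 (0.899). DNAJB1 and HSPH1 stood at 0.566. The groups share DPBS libraries within an experiment, and these values are a description only.

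In mouse all 4 members passed the filter in all 7 experiments. Their median levels over the 48 libraries were 15.24 CPM per kb of exon for Dnajb1, 6.344 for Hspa1b, 3.319 for Hspa1a and 2.91 for Hsph1. Over the 16 contrasts of a stimulus against DPBS, Hsph1 was higher in 0 and lower in 10, Hspa1b higher in 7 and lower in 0, Dnajb1 higher in 3 and lower in 1, and Hspa1a higher in 1 and lower in 0. Several of the 16 share DPBS libraries. Over all genes 0% to 68.1% were called per contrast, so these counts alone set no member apart. Control libraries vary in some experiments: Hsph1 was at 120.4 CPM in Lung1 DPBS replicate 2 and at 91.84 CPM in Lung3 DPBS replicate 2, and Hspa1a was at 1.868 CPM in IL33KO1 DPBS replicate 1.

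Hsph1, the mouse HSP110 gene, was lower with the whole extract. In Lung1 it was at 16.61, 16.97 and 12.01 CPM with ALT, against 39.18, 120.4 and 28.69 CPM with DPBS (log2 -2.05 ± 0.41, adjusted p = 0.000971). All ALT libraries lay below all DPBS libraries, and without DPBS replicate 2 the change was -1.17 and still called. In Lung3 Hsph1 was at 13.11 and 18.15 CPM with WT ALT, against 28.90 and 91.84 CPM with DPBS (-1.95 ± 0.46, adjusted p = 0.0122). That call was lost without either WT ALT library, and the change was -0.90 without DPBS replicate 2 and -2.57 without DPBS replicate 1. In Lung1 58.6% of genes were called, and in Lung3 34.2% for WT ALT.

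Extracts of the knockout fungi left Hsph1 higher than WT ALT in each library of Lung3, but not beyond the threshold. It was at 46.18 and 32.41 CPM with aegs KO ALT and at 32.81 and 31 CPM with aegl KO ALT. The changes against WT ALT were 1.33 ± 0.46 (adjusted p = 0.0582; 0.00472 by DESeq2) and 1.03 ± 0.45 (adjusted p = 0.129; 0.0395 by DESeq2), where 28.8% and 27.8% of genes were called. Against DPBS 0% of genes were called for either extract, with 1063 and 979 genes at an unadjusted p under 0.05 and 10 and 22 called by DESeq2.

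The proteins together lowered Hsph1 and raised Hspa1b in Lung2. Hsph1 was at 32.59 and 24.44 CPM with Aeg-S, 32.93 and 41.17 CPM with Aeg-L, 16.53 and 18.12 CPM with Aeg-S/L, and 27.49 and 46.68 CPM with DPBS. The Aeg-S/L change was -1.10 ± 0.26 (adjusted p = 0.0126), lost in 3 of the 4 fits without a library and at -0.67 without DPBS replicate 2. Hspa1b, one of the inducible HSP70 genes, was at 31.35 and 28.38 CPM with Aeg-S, 22.65 and 27.00 CPM with Aeg-L, 40.55 and 49.19 CPM with Aeg-S/L, and 18.72 and 18.86 CPM with DPBS. The Aeg-S/L libraries were the highest, and their change of 1.26 ± 0.15 was called (adjusted p = 0.000642). Dnajb1 was at 85.71 and 90.51 CPM with Aeg-S/L, against 62.23 and 57.67 CPM with DPBS (0.56 ± 0.11, adjusted p = 0.00558, lost without Aeg-S/L replicate 2 or DPBS replicate 2). In Lung2 38.8% of genes were called for Aeg-S/L and 0% for each single protein, with 1178 genes at an unadjusted p under 0.05 for Aeg-S and 599 for Aeg-L, and 18 and 2 called by DESeq2.

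Hspa1a, the other inducible HSP70 gene, had no call in Lung2. It was at 31.41 and 31.03 CPM with Aeg-S, 28.40 and 28.44 CPM with Aeg-L, 22.47 and 25.09 CPM with Aeg-S/L, and 21.42 and 21.25 CPM with DPBS. The ratio of Hspa1b to Hspa1a counts within a library was 1.80 to 1.96 with Aeg-S/L, 0.915 to 0.998 with Aeg-S, 0.798 to 0.950 with Aeg-L, and 0.874 to 0.887 with DPBS. In Lung3 it was 1.40 to 1.42 with WT ALT, 0.945 to 0.962 with aegs KO ALT, 0.779 to 0.954 with aegl KO ALT, and 1.04 to 1.36 with DPBS. In Lung4 it was 2.10 with Lysenin, 1.85 to 2.14 with PlyA2EryB, 2.30 to 3.10 with LSL, and 1.49 to 2.12 with DPBS. In IL33KO2 it was 2.38 to 2.54 with Lysenin, 1.74 to 2.0 with PlyA2EryB, 1.84 to 2.26 with LSL, and 1.27 to 1.86 with DPBS. In IL33KO1 it was 1.86 to 2.05 with ALT, 1.73 to 1.85 with Aeg-S/L, and 1.66 to 3.40 with DPBS. It was 1.35 to 1.83 with ALT, against 0.916 to 1.90 with DPBS in Lung1, and 2.02 to 2.18 with Aeg-S/L, against 1.86 to 2.17 with DPBS in Rag2gc. The ratios of every treated group thus overlapped those of DPBS in Lung1, IL33KO1 and Rag2gc. They also overlapped DPBS with Aeg-L in Lung2, with Lysenin and PlyA2EryB in Lung4, and with PlyA2EryB and LSL in IL33KO2. The 2 mouse genes are near copies too, and reads could have been split between them, so each gene's value is uncertain.

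**Figure D4:**
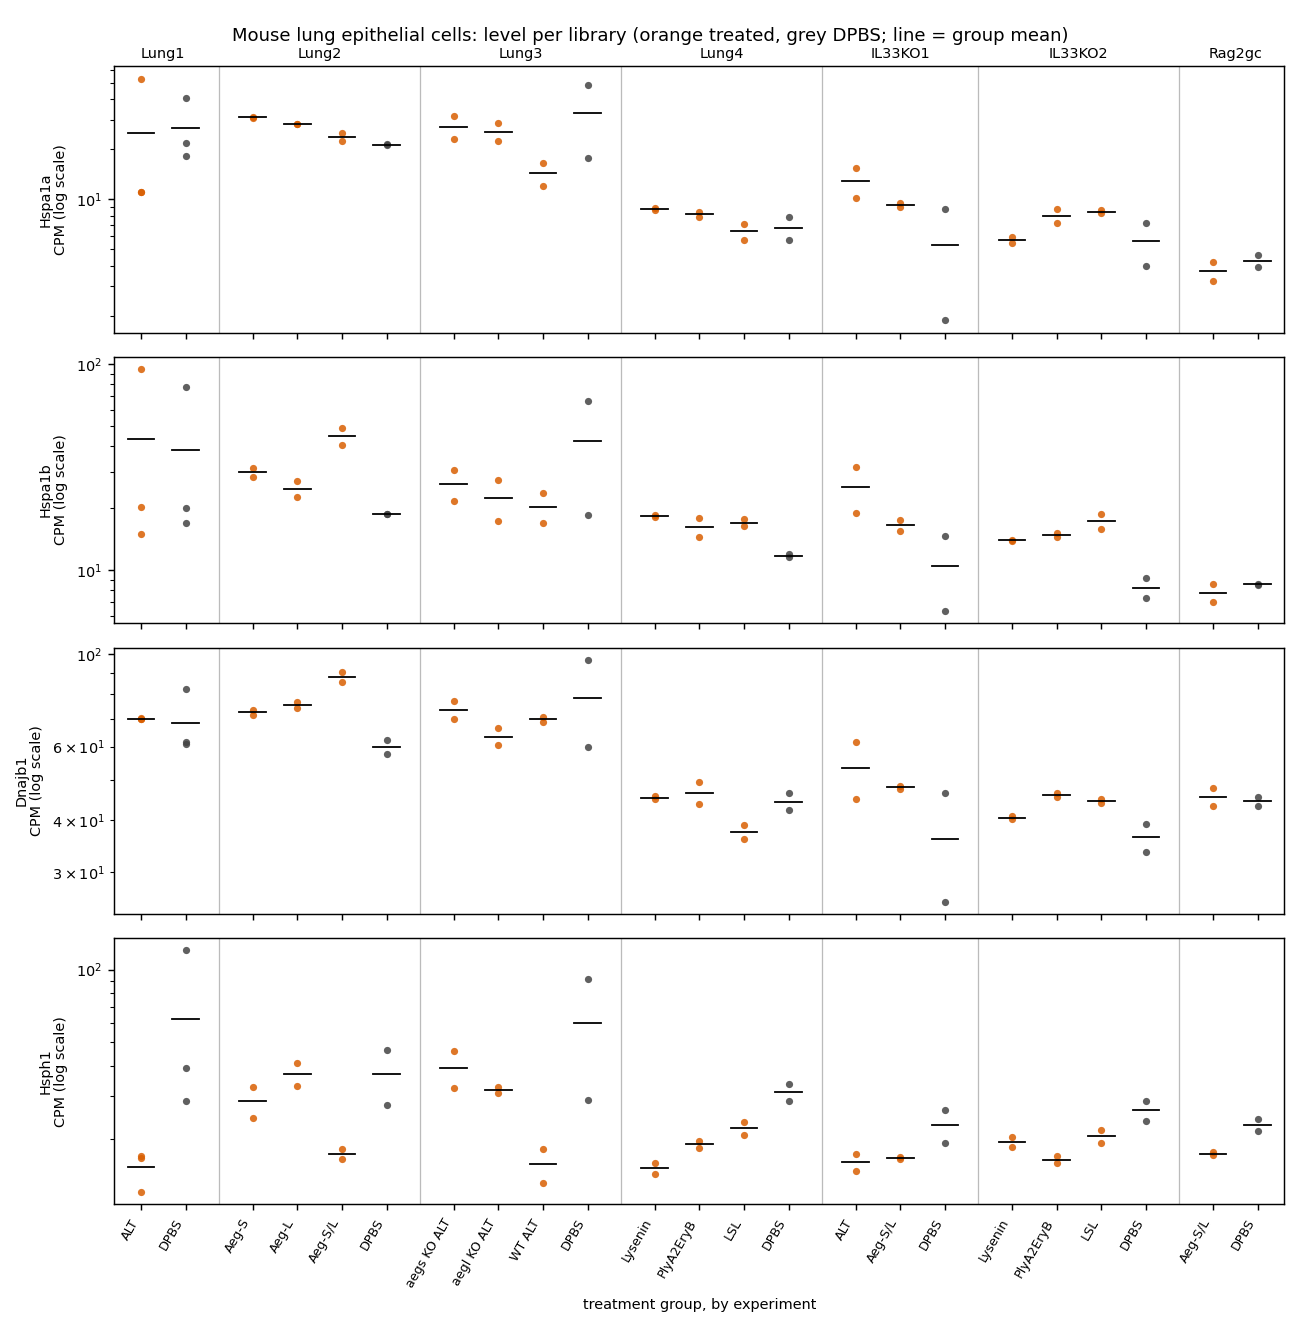
CPM of Hspa1a, Hspa1b, Dnajb1 and Hsph1 in each mouse library (log y axis) by experiment and group (x axis), with treated groups in orange, DPBS in grey and a line at each group's mean. Hsph1 lies at 12.01 to 16.97 CPM with ALT in Lung1, against 28.69 to 120.4 CPM with DPBS.

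The remaining HSP70 and J protein values of Lung1 and Lung3 were not called. In Lung1 Hspa1b was at 94.65, 20.33 and 14.96 CPM with ALT, against 20.17, 77.75 and 17.06 CPM with DPBS, and 1 library of each group stood far above the others. Hspa1a showed the same pair of libraries, with 53.42, 11.11 and 11.09 CPM with ALT, against 22.01, 40.91 and 18.17 CPM with DPBS. Dnajb1 was at 70.28, 69.89 and 69.71 CPM with ALT, against 61.45, 82.29 and 60.95 CPM with DPBS. In Lung3 Hspa1a was at 12.08 and 16.65 CPM with WT ALT, against 17.80 and 48.83 CPM with DPBS (-1.21 ± 0.42, adjusted p = 0.0531; 0.00836 by DESeq2). Hspa1b was at 30.77 and 21.70 CPM with aegs KO ALT, 27.38 and 17.46 CPM with aegl KO ALT, 16.95 and 23.72 CPM with WT ALT, and 18.47 and 66.24 CPM with DPBS. Dnajb1 was at 76.95 and 69.63 CPM with aegs KO ALT, 66.27 and 60.51 CPM with aegl KO ALT, 68.79 and 70.71 CPM with WT ALT, and 60 and 96.78 CPM with DPBS. DPBS replicate 2 was the highest library of Lung3 for Hspa1a, Hspa1b, Dnajb1 and Hsph1.

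In Lung4 all 3 pore-forming proteins lowered Hsph1 and raised Hspa1b. Hsph1 was at 14.26 and 15.83 CPM with Lysenin, 18.28 and 19.57 CPM with PlyA2EryB, 23.36 and 20.77 CPM with LSL, and 33.60 and 28.69 CPM with DPBS, with no overlap between any treated group and DPBS. The changes were -1.04 ± 0.09 (adjusted p = 4.71e-09), -0.72 ± 0.09 (adjusted p = 5.17e-07) and -0.50 ± 0.08 (adjusted p = 3.53e-05). Hspa1b was at 18.66 and 18.15 CPM with Lysenin, 17.90 and 14.55 CPM with PlyA2EryB, 17.66 and 16.45 CPM with LSL, and 11.61 and 12 CPM with DPBS. Its changes were 0.64 ± 0.09 (adjusted p = 9.53e-06), 0.46 ± 0.10 (adjusted p = 0.000352) and 0.53 ± 0.10 (adjusted p = 8.42e-05). These calls held in each fit without a library, where over all genes 63.6%, 64.7% and 65.8% were called.

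Dnajb1 and Hspa1a moved less in Lung4. Dnajb1 was at 44.88 and 45.60 CPM with Lysenin, 43.78 and 49.31 CPM with PlyA2EryB, 38.95 and 36.03 CPM with LSL, and 46.41 and 42.19 CPM with DPBS. The LSL change of -0.25 ± 0.06 was called (adjusted p = 0.00278) and was lost without LSL replicate 2. Hspa1a was at 8.869 and 8.633 CPM with Lysenin, 8.351 and 7.885 CPM with PlyA2EryB, 5.699 and 7.138 CPM with LSL, and 7.796 and 5.664 CPM with DPBS. The Lysenin change of 0.37 ± 0.14 (adjusted p = 0.0257) was lost in 3 of the 4 fits without a library and with DESeq2 (adjusted p = 0.0581), and was 0.15 without DPBS replicate 2 and 0.61 without DPBS replicate 1.

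The same 3 proteins in IL-33 KO mice (IL33KO2) again gave lower Hsph1 and higher Hspa1b. Hspa1b was at 14.12 and 13.88 CPM with Lysenin, 15.20 and 14.45 CPM with PlyA2EryB, 18.73 and 15.86 CPM with LSL, and 9.164 and 7.360 CPM with DPBS. The changes were 0.76 ± 0.13 (adjusted p = 0.00327), 0.84 ± 0.13 (adjusted p = 0.00137) and 1.07 ± 0.13 (adjusted p = 0.000713). Hsph1 was at 18.44 and 20.31 CPM with Lysenin, 16.89 and 15.82 CPM with PlyA2EryB, 21.79 and 19.19 CPM with LSL, and 28.68 and 23.73 CPM with DPBS. Its changes were -0.44 ± 0.12 (adjusted p = 0.02, lost without either Lysenin library), -0.68 ± 0.12 (adjusted p = 0.00204) and -0.35 ± 0.12 (adjusted p = 0.0448, kept in 1 of the 4 fits without a library and lost with DESeq2). In this experiment 39.7%, 50.3% and 37.4% of genes were called for Lysenin, PlyA2EryB and LSL.

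Dnajb1 was at 40.82 and 40.21 CPM with Lysenin, 46.57 and 45.33 CPM with PlyA2EryB, 43.95 and 45.02 CPM with LSL, and 33.62 and 39.25 CPM with DPBS in IL33KO2. The changes were 0.15 ± 0.08 without a call for Lysenin, 0.33 ± 0.08 for PlyA2EryB (adjusted p = 0.00963, kept in 3 of the 4 fits without a library) and 0.29 ± 0.08 for LSL (adjusted p = 0.025, lost without either LSL library). Hspa1a was at 5.944 and 5.476 CPM with Lysenin, 8.748 and 7.235 CPM with PlyA2EryB, 8.306 and 8.601 CPM with LSL, and 7.227 and 3.947 CPM with DPBS, and was not called.

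Set against Lung4 in a joint fit, the IL33KO2 log2 change of Hsph1 with Lysenin was higher by 0.62 ± 0.16 (adjusted p = 0.0186), which is a smaller fall. With LSL the log2 change was higher for Dnajb1 by 0.52 ± 0.11 (adjusted p = 0.00486) and for Hspa1b by 0.53 ± 0.17 (adjusted p = 0.037). The Hsph1 call was lost in 3 and the Hspa1b call in 5 of the 8 fits without a library. None of the 4 members was called for PlyA2EryB. Over all genes 14.5%, 14.7% and 22.6% differed for Lysenin, PlyA2EryB and LSL. Genotype and experiment cannot be told apart here, and this joint fit was chosen after seeing the data.

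In IL33KO1 no member was called, and the outcome turned on the 2 control libraries. Hspa1b was at 31.71 and 18.95 CPM with ALT, 17.63 and 15.49 CPM with Aeg-S/L, and 6.357 and 14.61 CPM with DPBS (ALT 1.27 ± 0.42, adjusted p = 0.141; 0.0252 by DESeq2). Hspa1a was at 15.49 and 10.18 CPM with ALT, 9.511 and 8.950 CPM with Aeg-S/L, and 1.868 and 8.803 CPM with DPBS. Dnajb1 was at 61.62 and 44.93 CPM with ALT, 47.44 and 48.38 CPM with Aeg-S/L, and 25.56 and 46.43 CPM with DPBS. DPBS replicate 1 was the lowest library for these 3 genes. Hsph1 was at 14.75 and 17.32 CPM with ALT, 16.86 and 16.50 CPM with Aeg-S/L, and 26.26 and 19.11 CPM with DPBS (-0.50 with an adjusted p = 0.206 for ALT, -0.44 with an adjusted p = 0.184 for Aeg-S/L). Without DPBS replicate 2 all 4 members were called in both contrasts. In IL33KO1 2.92% of genes were called for ALT and 10.9% for Aeg-S/L.

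In Rag2-/-; gc-/- mice Hsph1 fell with Aeg-S/L and the other members did not pass the test. Hsph1 was at 17.57 and 17.09 CPM with Aeg-S/L, against 24.20 and 21.52 CPM with DPBS (-0.40 ± 0.08, adjusted p = 0.00136), where 68.1% of genes were called. Hspa1b was at 8.562 and 7.017 CPM with Aeg-S/L, against 8.489 and 8.624 CPM with DPBS (-0.13 ± 0.12). Hspa1a was at 4.229 and 3.224 CPM with Aeg-S/L, against 3.911 and 4.645 CPM with DPBS. Dnajb1 was at 47.83 and 43.13 CPM with Aeg-S/L, against 43.36 and 45.37 CPM with DPBS. The rise of Hspa1b with Aeg-S/L in Lung2 was not set against this value in a test.

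**Figure D5:**
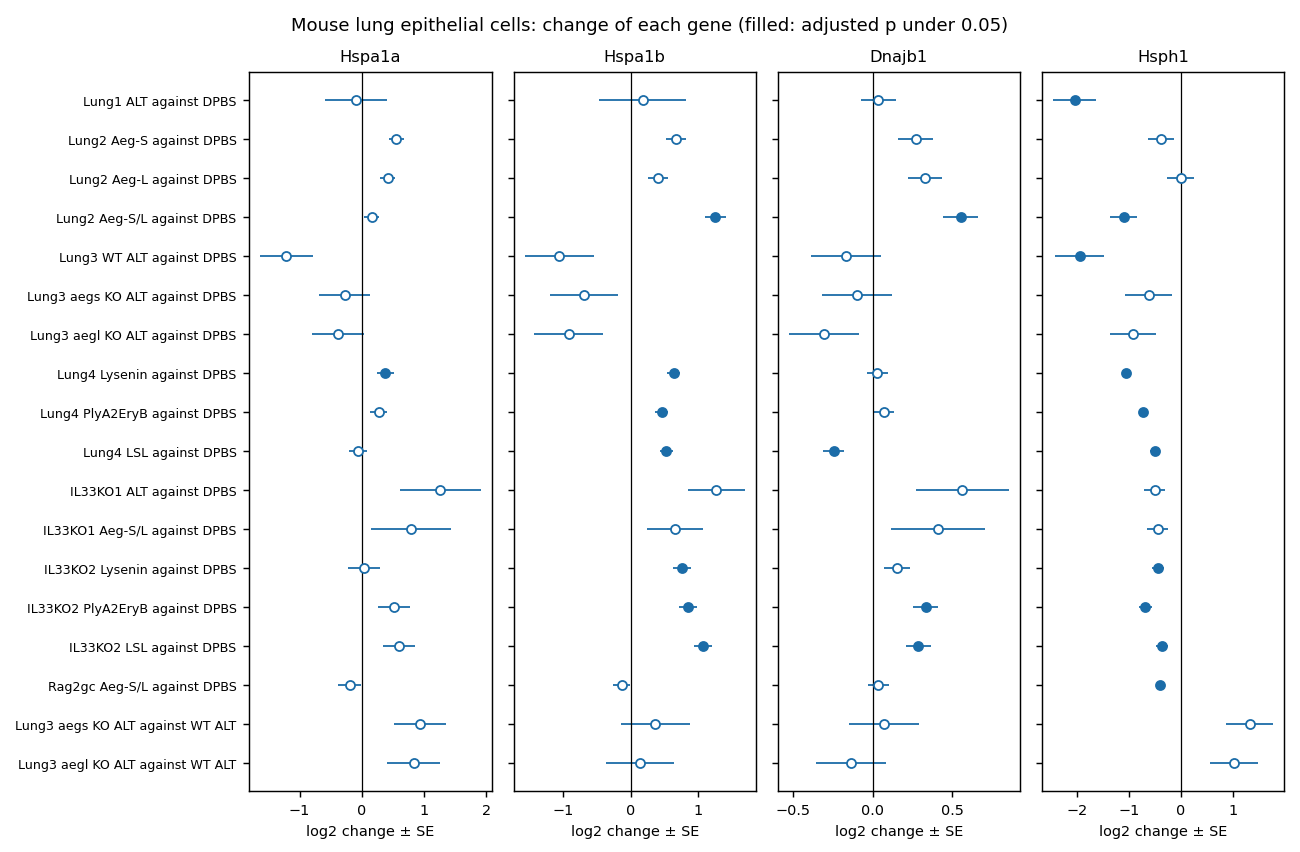
Log2 change of Hspa1a, Hspa1b, Dnajb1 and Hsph1 in each mouse comparison, with bars of 1 SE and filled points at an adjusted p under 0.05. Hsph1 lies at -1.04, -0.72 and -0.50 in Lung4 for Lysenin, PlyA2EryB and LSL, while Hspa1b lies at 0.64, 0.46 and 0.53.

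HSPH1 thus went up in the lines in each of its 6 calls against DPBS, while mouse Hsph1 went down in each of its 10. Per contrast, up to 43.2% of all genes were called in the lines and up to 68.1% in mouse. The human calls include Aeg-S/L+BAPTA-AM in both lines and Aeg-S/L+EGTA in H292-2, which share DPBS libraries with Aeg-S/L. Mouse calls lost in some fits without a library include Aeg-S/L in Lung2, WT ALT in Lung3, and Lysenin and LSL in IL33KO2. The lines were taken at 4 h and the mouse cells at 6 h, the human samples are 2 cancer lines in culture and the mouse samples are isolated lung epithelial cells, and no test compares them. Pathway genes were not counted in mouse.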

How the data were processed

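The submitters' processing notes name HISAT2 2.2.1, featureCounts 2.0.2, and the builds hg19 and mm10. How strand and multi-mapping reads were set is not stated in the sources used. The deposited values are raw read counts, 1 table per experiment, 13 tables with 99 columns, all used. The deposited gene length (another column) was used to set levels per kilobase. Columns were matched to libraries by title; both libraries of IL33KO2 Lysenin, IL33KO2 PlyA2EryB and Rag2gc DPBS share a name and have no number. In H292-2 the labels name a table for ALT while titles say Aeg-S/L, and titles were used. In Lung4, 2 lines without a gene ID held 12 counts (3.018e-06%) and were left out.

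Per experiment, genes passing edgeR 4.0.16 filterByExpr were fitted by its quasi-likelihood test (R 4.3.3, TMM scaling, 1 coefficient per group over all groups), with Benjamini-Hochberg adjustment over all tested genes and a call at an adjusted p under 0.05. CPM is counts per 1e+06 of the TMM-scaled library. The SE of a log2 change is its size over the root of F. Contrasts across experiments came from joint fits of both experiments with 1 coefficient per group. The fits of H1437-4 with H1437-1, H1437-3 with H1437-4 and IL33KO2 with Lung4 were chosen after seeing the data. DESeq2 1.42.0 and the other alternatives are in the closing section. Replicate numbers were not treated as pairs: correlations of same-numbered deviations were 0.0243 to 0.0486 in Lung1 and -0.145 to 0.039 for ALT with the other groups of H1437-1, while DPBS with ALT+Tra gave 0.466, 0.121 and 0.374. With 2 numbered libraries per group such correlations ran from -0.24 (Aeg-S with DPBS in Lung2) to 0.256 (aegs KO ALT with DPBS in H292-1). Gene names matched 51996 of 57820 human IDs and 0 of 55401 mouse IDs. Other chaperones were named as the members and, per comparison, at most the 6 largest called changes of the list; likeness was Pearson's r, 5 genes each. Promoter stretches are from RefSeq (GRCh38.p14), shared stretches from GENCODE transcripts. The members and lists were chosen with earlier results of these data known.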

Additional observations from a re-analysis of the deposited data

Results flagged for a closer look

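These differences between 2 lines, stimuli or genotypes under the same kind of contrast passed a test of the difference itself in a joint fit (edgeR's quasi-likelihood test, Benjamini-Hochberg adjustment over all genes), and each is given on the log2 scale. In each case the line, stimulus or genotype cannot be told apart from the experiment. For WT ALT against DPBS, NCI-H292 minus NCI-H1437 was 1.48 for DNAJB1 and 0.71 for HSPH1. In the other NCI-H1437 extract experiment, H1437-1, the changes with ALT were 0.52 for DNAJB1 and 0.93 for HSPH1, neither called by edgeR. HSPA1B stood at 6.20 ± 1.82 (adjusted p = 0.0429) for the same difference, but it failed the filter on low counts in each experiment alone and entered only through the joint fit, so its size is not interpreted. It rests on 17 and 8 counts with WT ALT, against 3 and 2 with DPBS in H292-1, and on 0 and 2 counts with WT ALT, against 5 and 34 with DPBS in H1437-4. Its call was lost in 7 of 8 fits without a library, where values ran from 4.11 to 9.57.

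For Aeg-S/L against DPBS, NCI-H292 minus NCI-H1437 was 0.33 for HSP90AA1, and for Aeg-S/L+EGTA against Aeg-S/L it was -0.27 ± 0.07 for HSP90AA1 (adjusted p = 0.0116). Within NCI-H1437, Aeg-S/L in H1437-3 minus WT ALT in H1437-4 was 1.21 for DNAJB1 and 0.32 ± 0.07 for HSPH1 (adjusted p = 0.0152, lost in 4 of 8 fits without a library). In mouse, IL33KO2 minus Lung4 was 0.62 for Hsph1 with Lysenin, 0.53 for Hspa1b with LSL and 0.52 for Dnajb1 with LSL.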

How the results depend on the processing

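Scaling by DESeq2 size factors left the number of members called within 1.5 times in 57 of 57 comparisons, and DESeq2 itself in 42 of 48. With DESeq2 the number of members called was 1 for ALT in H1437-1, Aeg-S/L in H1437-2, ALT in IL33KO1, and each knockout extract against WT ALT in Lung3 (0 by edgeR in all of these), and 2 for WT ALT in Lung3 (1 by edgeR). Without a filter on low counts it was 1 for ALT and ALT+Tra against DPBS in H1437-1, EGTA against Aeg-S/L in H1437-3, aegl KO ALT against WT ALT in H292-1, EGTA against DPBS in H292-2 and Aeg-S in Lung2. Without that filter it was 2 for ALT in IL33KO1, aegl KO ALT against DPBS and both knockout extracts against WT ALT in Lung3, and 3 for WT ALT in Lung3. With only the compared groups in the fit it was 2 for Aeg-S/L and for Aeg-S/L+Tra against Aeg-S/L in H1437-2, aegs KO ALT against DPBS in H1437-4 and both knockout extracts against WT ALT in Lung3. With those groups alone it was 1 for BAPTA-AM against Aeg-S/L in H1437-3, WT ALT in H1437-4, EGTA against DPBS in H292-2, and LSL and Lysenin in IL33KO2, and 0 for BAPTA-AM against EGTA in H292-2 and WT ALT in Lung3. The cause of these changes was not tested. With the replicate block the count was 1 for ALT in H1437-1 and LSL in IL33KO2 and 0 for Aeg-S/L+Tra against Aeg-S/L in H1437-2, and within 1.5 times in the other 42 of 45. Same-numbered libraries deviated together in all 3 pairs of H1437-1 DPBS with ALT+Tra, a contrast in which the block gave 0 members called as before, but not in the pairs with ALT. With Hspa1a and Hspa1b summed in Lung4, LSL against DPBS gave 0.34 for the sum, which was called, where Hspa1a alone gave -0.06. Each sum was set once against Hspa1a and once against Hspa1b, which gave 36 values. In 5 more of these the sum was called where Hspa1a alone was not. They were Aeg-S/L in Lung2, PlyA2EryB in Lung4, and Lysenin, PlyA2EryB and LSL in IL33KO2. Leaving out 1 library at a time kept the count within 1.5 times in 217 of 274 fits. The count ran from 0 to 4 for both stimuli in IL33KO1 and for WT ALT and both knockout extracts against DPBS in Lung3. It ran from 0 to 3 for BAPTA-AM against EGTA in H292-2 and the Lysenin difference between IL33KO2 and Lung4, and from 0 to 2 for Aeg-S in H1437-2 and the PlyA2EryB difference. It ran from 0 to 1 for ALT in H1437-1 and EGTA against DPBS in H1437-3, and stayed at 0 for Aeg-S/L+Tra against Aeg-S/L in H1437-2. It ran from 1 to 3 for WT ALT in H1437-4, LSL and Lysenin in IL33KO2, the LSL difference and Aeg-S/L in Lung2. It ran from 1 to 2 for BAPTA-AM against Aeg-S/L in H1437-3, the difference between Aeg-S/L in H1437-3 and WT ALT in H1437-4, aegs KO ALT against WT ALT in H292-1, EGTA against DPBS in H292-2 and ALT in Lung1. It stayed at 1 (2 with all libraries) for BAPTA-AM against EGTA and EGTA against Aeg-S/L in H1437-3, and for aegl KO ALT against WT ALT in H292-1.

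Single members changed sign when 1 library was left out in the contrasts that follow, none of them called with all libraries. For HSP90AA1 the log2 change ran from -0.28 to 0.26 with Aeg-L in H1437-2, from -0.054 to 0.091 for Aeg-S/L in H1437-3 minus WT ALT in H1437-4, from -0.060 to 0.25 with aegs KO ALT against DPBS in H292-1, and in H292-2 from -0.16 to 0.020 for BAPTA-AM against EGTA and from -0.10 to 0.073 for EGTA against DPBS. For HSPH1 in H292-2 it ran from -0.15 to 0.099 for BAPTA-AM against EGTA and from -0.25 to 0.0013 for EGTA against Aeg-S/L. For that EGTA contrast, NCI-H292 minus NCI-H1437, DNAJB1 ran from -0.029 to 0.090 and HSPH1 from -0.15 to 0.097. In Lung1 Hspa1b ran from -1.12 to 1.22. In Lung2 Hsph1 ran from -0.33 to 0.43 with Aeg-L and from -0.71 to 0.060 with Aeg-S. In Lung3 aegl KO ALT against DPBS ran from -0.61 to 0.080 for Dnajb1, -0.93 to 0.52 for Hspa1a, -1.56 to 0.28 for Hspa1b and -1.53 to 0.14 for Hsph1. For aegs KO ALT these were -0.40 to 0.29, -0.83 to 0.63, -1.34 to 0.51 and -1.23 to 0.44, and for WT ALT Dnajb1 ran from -0.49 to 0.20 and Hspa1b from -1.72 to 0.12. In Lung4 Hspa1a ran from -0.27 to 0.19 with LSL, and Dnajb1 from -0.048 to 0.088 with Lysenin and from -0.022 to 0.15 with PlyA2EryB. In IL33KO2 Hspa1a ran from -0.33 to 0.53 with Lysenin, and minus Lung4 from -0.69 to 0.17 with Lysenin and from -0.094 to 0.77 with PlyA2EryB. In Rag2gc Dnajb1 ran from -0.046 to 0.10. With 2 libraries in most groups, the sign of these changes could not be settled. This held for members at a few CPM and also for HSP90AA1, the human member with the highest level.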
